A study of Mus musculus with 12 samples.

Results

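The naive pluripotency transcription factors described here are Pou5f1, Nanog, Sox2, Klf2, Klf4, Esrrb, Tfcp2l1, Prdm14, Zfp42 and Tbx3. They were chosen by name as the transcription factors of the naive state of mouse embryonic stem cells (mESCs). These are 10 of the 22556 genes in the deposited counts, and all 10 were found by symbol.

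The series measured chromatin-associated RNA (ChrRNA-seq), which is mostly nascent transcript, in iXist-ChrX mESCs with Xist left whole or partly deleted, to compare how much of the X chromosome Xist silences. There were 12 libraries, 6 without doxycycline (Dox) and 6 after 24 h of Dox. All lines are female hybrids of 129S and Castaneus (Cast) mice in which a TetOn promoter replaces that of the endogenous Xist on the 129S X chromosome, so that Dox switches Xist on. For each gene the authors deposited a total of read pairs and, by sequence variants, a count from each parent.

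WT cells carry the TetOn promoter alone, with 1 library in each state and so no replicate check. XistDelA cells, in which the A-repeat near the 5′ end of Xist is deleted, gave 3 clones, C1, 2C2 and C11, each with 1 library without Dox and 1 with Dox. In the deposited data the deletion of C11 has another name than that of the other clones, so it may differ. XistDelm6A/T1_11C, in which the neighbouring region that carries N6-methyladenosine is deleted, is 1 clone with 2 replicates in each state, called 11C from here on. The cells grew with serum and leukaemia inhibitory factor (LIF) on mitomycin-inactivated mouse fibroblasts as feeders, and the paper states that chromatin RNA was taken from cells pre-plated to remove the feeders. Only genes that change on chromatin within 24 h can be seen here, and 11C and XistDelA cannot be told apart from the library sets in which they were made.

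Naive mESCs, the culture form of the preimplantation epiblast, are held by a set of transcription factors that bind one another's genes and keep lineage genes low. OCT4 (the product of Pou5f1), SOX2 and NANOG form the centre of this network. LIF feeds in through STAT3 to Klf4 and Tfcp2l1 and through other kinases to Tbx3, while Esrrb and Klf2 respond to GSK3 and ERK signalling, and differentiation begins as these factors are lost.

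Counts on genes summed to between 18893447 and 36007145 in a library, at a median of 26552191. WT had 27022431 counts without Dox and 27795782 with Dox. In the order C1, 2C2, C11, XistDelA had 25742430, 22949578 and 26081951 without Dox and 27489603, 27300014 and 27469878 with Dox. Replicates 1 and 2 of 11C had 21551628 and 18893447 without Dox and 36007145 and 21079263 with Dox, so that 11C holds both the shallowest and the deepest library. Levels are given in CPM, counts scaled by the sum of all counts on genes, and the spans counted include introns.

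Xist, the gene that Dox drives, checks the labels. It was at 297 CPM in WT without Dox and at 5514 CPM with Dox. In XistDelA it was at 136 ± 19.4 CPM (SD, n = 3) without and 1470 ± 178 CPM (SD, n = 3) with Dox, and in 11C at 92.8 ± 10.3 (SD, n = 2) and 3858 ± 1015 CPM (SD, n = 2). All 6 pairs of libraries were higher with Dox, as the labels say. Xist read pairs with a parental variant came almost wholly from 1 genome, which is called 129S here on that ground.

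The embryonic stem cell label was checked against 9 markers, 5 of them members. Their summed level lay from 1229 to 2194 CPM, led by Zfp42 or Esrrb, and 8 of the 9 were detected in every library, Sox2 being at 0. The 13 fibroblast markers for the feeders summed to 9.20 to 34.4 CPM, led by Col5a2 at 4.22 to 17.3 CPM, with Lum at 0 in 10 libraries. The stem cell markers were therefore far above the feeder markers in every library. In bulk RNA, fewer cells of a type and less RNA per cell cannot be told apart.

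The promoters of Zfp42, Klf2, Klf4, Tfcp2l1 and Nanog are shown because the levels of the first 4 differed in 1 direction with Dox in all 3 XistDelA clones, and because Nanog lies on a segment that differs in C11. Each line gives the 250 bases upstream of the start, 5′ to 3′ on the strand of the gene, from RefSeq on build GRCm38.p6. The RefSeq table had an entry for 8 of the 10 members, the others being Prdm14 and Tbx3. Capitals mark matches, on either strand, to 6 motifs that were chosen after the promoters had been seen.
Zfp42, chr8:43307010-43307259, reverse strand: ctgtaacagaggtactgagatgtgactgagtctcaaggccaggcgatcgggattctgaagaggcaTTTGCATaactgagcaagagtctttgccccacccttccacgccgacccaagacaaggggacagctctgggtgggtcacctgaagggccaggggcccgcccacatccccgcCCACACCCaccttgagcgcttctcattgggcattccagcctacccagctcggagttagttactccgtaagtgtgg
Klf2, chr8:72318812-72319061, forward strand: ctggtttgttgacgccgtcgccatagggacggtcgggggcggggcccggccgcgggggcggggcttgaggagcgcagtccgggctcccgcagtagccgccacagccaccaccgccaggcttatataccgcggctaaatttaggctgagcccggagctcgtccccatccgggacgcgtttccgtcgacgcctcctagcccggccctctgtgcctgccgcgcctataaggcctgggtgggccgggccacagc
Klf4, chr4:55532476-55532725, reverse strand: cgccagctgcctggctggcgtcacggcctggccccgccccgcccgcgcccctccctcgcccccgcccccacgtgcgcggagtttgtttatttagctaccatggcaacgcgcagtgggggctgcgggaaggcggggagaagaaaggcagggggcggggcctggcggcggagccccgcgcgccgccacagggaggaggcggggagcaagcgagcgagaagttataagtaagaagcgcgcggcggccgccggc
Tfcp2l1, chr1:118627695-118627944, forward strand: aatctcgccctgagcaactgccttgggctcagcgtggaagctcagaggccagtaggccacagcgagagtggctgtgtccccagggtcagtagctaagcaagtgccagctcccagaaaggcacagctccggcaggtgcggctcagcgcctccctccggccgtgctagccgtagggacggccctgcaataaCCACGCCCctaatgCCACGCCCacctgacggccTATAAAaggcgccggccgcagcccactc
Nanog, chr6:122707239-122707488, forward strand: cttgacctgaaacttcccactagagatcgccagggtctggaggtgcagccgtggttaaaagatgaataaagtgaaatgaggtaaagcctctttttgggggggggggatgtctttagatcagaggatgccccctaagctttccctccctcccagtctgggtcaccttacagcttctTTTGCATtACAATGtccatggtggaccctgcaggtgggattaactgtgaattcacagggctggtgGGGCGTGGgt

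Of the members, 7 have an entry at the start used in the counts, and the motifs were searched in these 7 and in all 32851 promoters of the same length. TTTGCAT, part of the octamer bound by OCT4, was in 4.12% of all promoters and in those of Nanog and Zfp42. ACAATG, a core bound by SOX2, was in 10.7% of all promoters and in that of Nanog, 1 base after TTTGCAT. GGGNGTGG, a motif of Krüppel-like factors, was in 15.9% of all promoters and in those of Pou5f1, Nanog, Tfcp2l1 (at 2 places) and Zfp42. TATAAA was in 12.4% of all promoters and in that of Tfcp2l1, 28 bases before the start. AAGGTCA, bound by ESRRB, and TTCCNGGAA, bound by STAT3, were in 4.08% and 0.913% of all promoters and in none of these 7 windows. Klf2 and Klf4 thus held no match in their windows, which were the most GC-rich of the 5 printed, at 71.2% and 74.0%. A match describes the letters only.

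To compare members with each other, counts were divided by the span of each gene. Zfp42 had the highest level per span, with a median over the 12 libraries of 58.1 CPM per kb and a lowest library of 37.0 CPM per kb, above every library of every other member. Klf4, Pou5f1, Nanog, Klf2, Tfcp2l1, Tbx3, Esrrb and Prdm14 followed, with medians of 12.9, 12.7, 10.6, 9.31, 7.19, 5.40, 3.18 and 2.44 CPM per kb. Each of these overlapped the next in its range over libraries. Of 20367 genes with counts, 0.250% had a higher median per kb than Zfp42 and 15.1% a higher one than Prdm14.

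Pou5f1 (chr17:35506031-35510777), which encodes the POU-domain factor OCT4, was at 73.0 CPM in WT without Dox and 63.3 with Dox. In the order C1, 2C2, C11 the XistDelA clones were at 64.7, 58.7 and 64.0 CPM without Dox and at 49.4, 58.8 and 61.8 with Dox. The 11C replicates were at 53.7 and 48.5 CPM without and 78.0 and 31.2 with Dox. The groups overlapped between states in both lines, and the replicates of 11C with Dox were the highest and the lowest of all 12 libraries.

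Sox2 (chr3:34650004-34652460), whose HMG-box product binds DNA together with OCT4, had a count of 0 in 12 of 12 libraries. The upper limit that 0 allows, 3 counts in a library, is from 0.0833 to 0.159 CPM. Sox2 lies wholly inside Sox2ot (chr3:34560380-34677993) on the same strand, and the authors' counting left out read pairs that overlap 2 genes on a strand. The value says nothing about Sox2 transcription, and Sox2 passed no count filter and entered no test. No other member overlaps another annotated gene in the counts. Sox2ot itself was at 27.0 ± 6.24 CPM (SD, n = 3) in XistDelA and 52.9 ± 0.783 (SD, n = 2) in 11C without Dox.

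Nanog (chr6:122707488-122714633), a homeobox factor whose level is known to vary between cells of a culture, was at 76.1 CPM in WT without Dox and 75.0 with Dox. The XistDelA clones were at 79.2, 86.1 and 84.8 CPM without Dox and 69.5, 90.0 and 93.7 with Dox. The 11C replicates were at 74.5 and 47.6 CPM without and 69.8 and 40.2 with Dox. Without Dox both 11C replicates were below the 3 clones, whereas with Dox replicate 1 of 11C and clone C1 were about level.

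Klf4 (chr4:55527136-55532475), a Krüppel-like zinc finger factor and STAT3 target, was at 71.4 CPM in WT without Dox and 66.5 with Dox. The XistDelA clones were at 90.9, 98.6 and 83.9 CPM without Dox and 66.3, 84.1 and 71.6 with Dox. The 11C replicates were at 33.9 and 43.5 CPM without and 35.8 and 30.7 with Dox. All 4 libraries of 11C lay below all 8 others, and each XistDelA clone was lower with Dox than without, although the states just overlapped between clones.

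Tfcp2l1 (chr1:118627944-118685168), a CP2-family factor and STAT3 target, was at 428 CPM in WT without Dox and 377 with Dox. The XistDelA clones were at 415, 596 and 472 CPM without Dox and 323, 495 and 408 with Dox. The 11C replicates were at 292 and 377 CPM without and 325 and 422 with Dox. WT and each XistDelA clone were thus lower with Dox and both 11C replicates higher, while the states overlapped among the clones and among the 11C replicates.

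Tbx3 (chr5:119670861-119684724), a T-box factor of the LIF pathway, was at 66.3 CPM in WT without Dox and 71.6 with Dox. The XistDelA clones were at 53.9, 81.7 and 89.3 CPM without Dox and 47.1, 78.2 and 79.1 with Dox. In 11C the replicates were at 65.4 and 114 CPM without and 65.7 and 147 with Dox. C1 was below 2C2 and C11 in both states, by more than any clone differed between states, and replicate 2 of 11C was the highest in both states.

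Klf2 (chr8:72319061-72321654), a second Krüppel-like factor, known to be degraded after ERK signalling, was at 27.0 CPM in WT without Dox and 20.0 with Dox. The XistDelA clones were at 24.05, 30.9 and 34.0 CPM without Dox and 17.7, 25.7 and 22.5 with Dox. In 11C the replicates were at 24.3 and 27.6 CPM without and 23.5 and 18.3 with Dox. Every pair was lower with Dox, but the states overlapped among the XistDelA clones.

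Esrrb (chr12:86361116-86521628), an orphan nuclear receptor, ranged from 412 CPM in C1 without Dox to 843 CPM in replicate 1 of 11C with Dox, with a median of 511 CPM. That library stood above the 11 others, which did not pass 602 CPM. Prdm14 (chr1:13113427-13127163), a PR-domain repressor of FGF signalling, had the narrowest range of the 9 detected members on the log2 scale (0.85), from 25.9 CPM in WT with Dox to 46.6 CPM in replicate 2 of 11C without Dox. Both libraries of that replicate were above all the others.

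Zfp42 (chr8:43295066-43307009) encodes REX1, a zinc finger protein related to YY1 and a common marker of the naive state. It was at 646 CPM in WT without Dox and 883 with Dox. The XistDelA clones were at 689, 621 and 698 CPM without Dox and 912, 908 and 887 with Dox. The 11C replicates were at 631 and 442 CPM without and 818 and 493 with Dox. All 6 pairs were higher with Dox, and in XistDelA the states did not overlap.

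**Figure D1:**
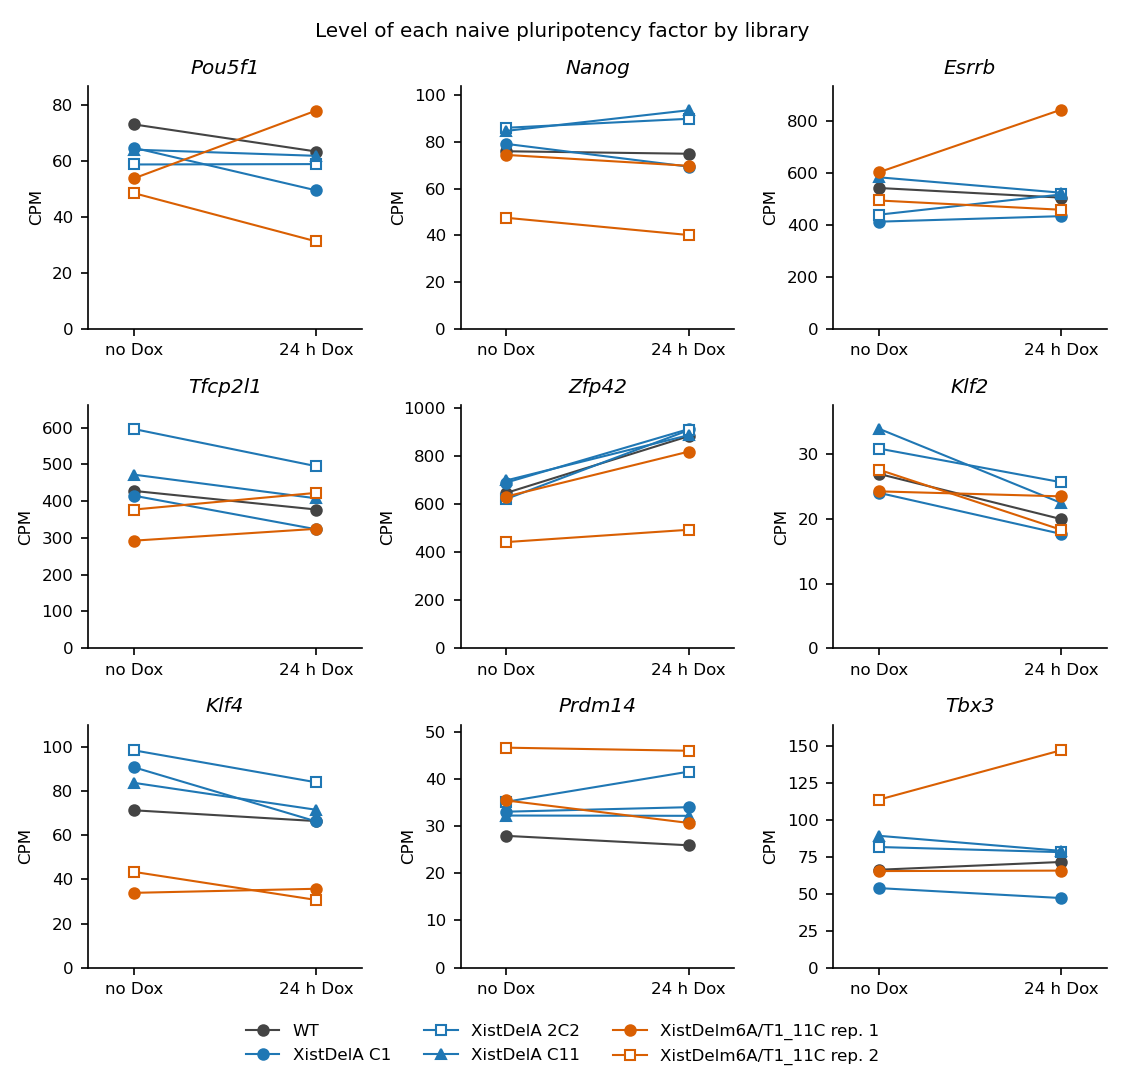
Level of each of the 9 detected members in CPM (vertical axis from 0) without and after 24 h of Dox, with a line joining the libraries of a clone or replicate. Zfp42 is higher with Dox in 6 of 6 pairs, Klf2 is lower in 6 of 6, and 11C lies below the other lines for Klf4.

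The widest range of log2 CPM over the 12 libraries was that of Klf4 (1.68), followed by Tbx3 (1.64) and Pou5f1 (1.32). For each of these, the genes with the most similar profile were found among 12281 others that averaged 50 counts or more, by the root mean square difference of centred log2 CPM. Klf4 was nearest to Tmem30a (0.12) and Pgm2l1 (0.12), against a median over genes of 0.64. Tbx3 was nearest to Bambi (0.16) and Zfp91Cntf (0.18), against 0.56. Pou5f1 was nearest to Gna11 (0.10) and Abhd17a (0.10), against 0.40. Among the members, the most similar pair was Pou5f1 and Nanog (0.24) and the least similar Klf4 and Tbx3 (0.83). These measures describe 12 libraries that share lines and clones.

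The first comparison asks whether 24 h of Dox, and so of Xist without its A-repeat, moved the members in the XistDelA clones. Zfp42 was higher in the 3 clones by a log2 fold change of 0.40 ± 0.07 (standard error), which is 1.32 times. Klf2 (-0.46 ± 0.18), Klf4 (-0.33 ± 0.11) and Tfcp2l1 (-0.31 ± 0.19) were each lower in all 3. Tbx3 (-0.17 ± 0.25) was also lower in 3 of 3 clones and Pou5f1 (-0.17 ± 0.10) in 2 of 3. Nanog (-0.01 ± 0.12), Esrrb (0.01 ± 0.14) and Prdm14 (0.07 ± 0.12) were close to 0 and differed in sign between clones.

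Between the libraries of 3 clones in each state, edgeR's quasi-likelihood test with Benjamini-Hochberg adjustment called 0 of the 9 tested members, where it called 3 of 14866 genes, or 0.0202%. Zfp42 had an edgeR adjusted p of 0.144, Klf4 of 0.265, Klf2 of 0.308 and Tfcp2l1 of 0.500. At an unadjusted p under 0.05 there were 3 members, Zfp42, Klf4 and Klf2, and 2162 genes, and DESeq2 called Zfp42 and 362 genes.

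The libraries without and with Dox of a clone come from the same clone, so the pairing is part of the design. With the clone as a block, edgeR called 6 of the 9 members, beside 4410 of 14866 genes (29.7%). Zfp42 rose (0.40 ± 0.05, edgeR adjusted p = 1.1e-07), while Tfcp2l1 (-0.31 ± 0.05, edgeR adjusted p = 8.3e-06), Klf2 (-0.46 ± 0.08, edgeR adjusted p = 2.3e-05) and Klf4 (-0.33 ± 0.06, edgeR adjusted p = 4.0e-05) fell. Tbx3 (-0.17 ± 0.06, edgeR adjusted p = 0.0194) and Pou5f1 (-0.17 ± 0.06, edgeR adjusted p = 0.0418) fell by less. For Pou5f1 the counts assigned to a genome went the other way in all 3 clones, by 0.54, 0.30 and 0.31 from Cast and 0.18, 0.20 and 0.18 from 129S, so its fall is not borne out by them. These are 125 to 223 counts in a library. Klf4 and Tfcp2l1 were lower on both genomes in 3 of 3 clones, while in 2C2 Klf2 was higher from 129S (0.32) and Tbx3 from Cast (0.0651). The changes were as large without the block, and what differs is the spread they are set against. Over all alternatives the highest edgeR adjusted p was 0.909 for Zfp42, Klf2, Klf4 and Tfcp2l1, reached without 2C2 and without the block, and 0.978 for Tbx3 and 0.951 for Pou5f1. Such p-values measure the spread between libraries.

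Over all 6 pairs, Zfp42 was higher by log2 values of 0.45 in WT, 0.40, 0.55 and 0.34 in C1, 2C2 and C11, and 0.37 and 0.16 in the 11C replicates. Klf2 was lower in all of them, by log2 values of -0.43 in WT, -0.44, -0.27 and -0.60 in the clones and -0.05 and -0.59 in 11C. Of 12282 genes averaging 50 counts or more, 1478 (12.03%) were higher in all 6 pairs and 9.79% lower in all 6, so 1 member of each kind among 9 is near this background. Klf4 was lower in 5 of 6 pairs, replicate 1 of 11C being at 0.08. The median log2 change of all these genes lay from -0.07 to 0.08 in a pair. Zfp42 was higher on both parental genomes in 6 of 6 pairs, by 0.14 to 0.53 from Cast and 0.19 to 0.59 from 129S. By assigned counts Klf2 was not lower throughout. Its counts from 129S were higher with Dox in 3 of 6 pairs, 2C2 (0.32) and the 11C replicates (0.10 and 0.07). From Cast they were higher in 1 of 6, replicate 1 of 11C (0.145). These are 70 to 185 counts in a library.

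**Figure D2:**
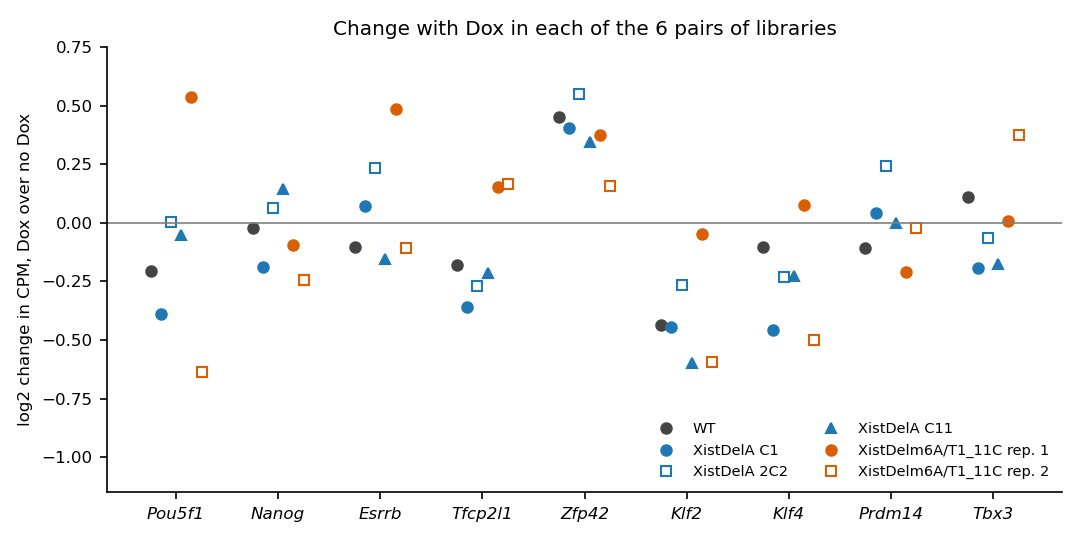
Log2 change in CPM from no Dox to 24 h of Dox (vertical axis) in each of the 6 pairs of libraries, for the 9 detected members. Zfp42 lies above 0 in 6 pairs and Klf2 below 0 in 6, while Pou5f1 spans -0.64 to 0.54 between the replicates of 11C.

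The genes around the network were followed in 5 lists, each given with its count of called genes, where the block called 29.7% of all genes. Among 22 further genes of the naive network, the median log2 change with Dox in XistDelA was -0.15 against 0.01 for all genes tested, with 0 called without the block and 13 (59.1%) with it, 4 higher and 9 lower. The co-receptor Tdgf1 (-0.44 ± 0.05), the zinc finger factor Zfp281 (-0.38 ± 0.05) and the nuclear receptor Nr0b1 (-0.34 ± 0.08) fell, and the nuclear receptor Nr5a2 rose (0.24 ± 0.05). Of 12 genes of LIF and BMP signalling the block called 4 (33.3%), among them Id2 (-0.78 ± 0.15) and the STAT3 target Socs3 (-0.36 ± 0.10), which both fell, at a list median of -0.08. Of 17 regulators of FGF and WNT signalling and of exit from the naive state it called 8 (47.1%), and Fgfr2 (0.66 ± 0.07) and Tcf7l1 (0.49 ± 0.06) rose while Spry4 (-0.52 ± 0.07) and Dusp6 (-0.48 ± 0.12) fell, at a median close to 0. It called 4 of 15 primed and lineage genes (26.7%), all lower, at a median of -0.09, and 1 of 15 genes of the 2-cell-like state (6.67%), at a median of 0.02. The share called was thus above that of all genes for the naive network (59.1%) and for the regulators of FGF and WNT signalling and of exit (47.1%). It was near that of all genes for LIF and BMP signalling and for primed and lineage genes, and below it for the 2-cell-like state. No test compared the lists with all genes, and the lists were not set against genes of like level.

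In 11C, the log2 fold change with Dox was 0.27 ± 0.29 for Zfp42, 0.17 ± 0.30 for Tfcp2l1, 0.28 ± 0.50 for Tbx3, -0.33 ± 0.24 for Klf2 and -0.23 ± 0.24 for Klf4. Pou5f1 and Esrrb were each higher in replicate 1 and lower in replicate 2, and Nanog and Prdm14 lower in both. The standard errors were larger than in XistDelA for all 5. edgeR called 0 of the 9 members and 0 of 15140 genes (0.0%), with 0 members and 173 genes at an unadjusted p under 0.05, and DESeq2 called 0 members and 3 genes. Without a block none of the genes of the 5 lists was called either. Without the Dox library of replicate 1 the value of Zfp42 was 0.00, and without that of replicate 2 those of Tfcp2l1 and Tbx3 were -0.15 and -0.56, while within pairs Zfp42 and Tfcp2l1 were higher in both replicates and Tbx3 in replicate 2 (0.37), replicate 1 being level (0.0069). Such a fit sets 1 library with Dox against both without, so that the difference in level between the replicates enters its value.

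The difference between the Dox changes of 11C and XistDelA was then tested directly. It was 0.49 ± 0.37 on the log2 scale for Tfcp2l1 and 0.47 ± 0.59 for Tbx3, both lower with Dox in 3 of 3 clones and above 0 in both 11C replicates, Tbx3 only barely so in replicate 1. It was -0.12 ± 0.24 for Zfp42, 0.15 ± 0.29 for Klf2 and 0.11 ± 0.24 for Klf4. Without a block edgeR called 0 of 9 members and 0 of 15745 genes (0.0%), with 0 members and 233 genes at an unadjusted p under 0.05, and DESeq2 called 0 members and 2 genes. Of 12282 genes, 8.90% lay on 1 side of 0 in all 3 clones and on the other side in both 11C replicates, beside 2 of the 9 members. A difference in Dox change between the lines was not detectable for any member at this replication.

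The lines were also compared within each state, as levels. Klf4 was lower in 11C than in XistDelA by a log2 fold change of -1.34 ± 0.17 without Dox (edgeR adjusted p = 0.00136), which is 2.53 times, and of -1.23 ± 0.17 with Dox (edgeR adjusted p = 0.00220), which is 2.34 times. The lower level held on both genomes, at -1.73 from Cast and -1.82 from 129S without Dox and at -1.56 and -1.45 with Dox. Nanog was at -0.57 ± 0.21 without Dox (edgeR adjusted p = 0.0738) and passed the threshold with Dox at -0.72 ± 0.21 (edgeR adjusted p = 0.0390). Zfp42 was at -0.44 ± 0.17 without Dox (edgeR adjusted p = 0.0976) and -0.56 ± 0.17 with Dox (edgeR adjusted p = 0.0513), and Tfcp2l1 at -0.67 ± 0.26 (edgeR adjusted p = 0.0978) and -0.17 ± 0.26.

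These are 1 of 9 members without Dox, beside 3125 of 15745 genes called by edgeR (19.8%), and 2 of 9 with Dox, beside 2613 genes (16.6%), so the count of members is near the background. The other members were called in neither state by edgeR: Pou5f1 was at -0.40 ± 0.24 and -0.17 ± 0.24 (by assigned counts, however, above 0 on both genomes, at 0.47 from Cast and 0.41 from 129S without Dox and at 0.20 and 0.30 with Dox), Klf2 at -0.30 ± 0.20 and -0.15 ± 0.20, Esrrb at 0.08 ± 0.21 and 0.30 ± 0.21, Prdm14 at 0.19 ± 0.24 and 0.05 ± 0.24, and Tbx3 at 0.16 ± 0.41 and 0.63 ± 0.41. The call of Klf4 held in every alternative in both states, with an edgeR adjusted p of at most 0.0262. That of Nanog with Dox was lost without 2C2 (-0.68, edgeR adjusted p = 0.166), without C11 (-0.61, edgeR adjusted p = 0.169) and with only the 2 groups in the fit (-0.70, edgeR adjusted p = 0.0857), where the difference stayed about as large, and without replicate 2 of 11C (edgeR adjusted p = 0.160), where it shrank to -0.47. Pou5f1 with Dox was at -0.81 without replicate 1 of 11C, where it was called as was Zfp42 (-0.82), and at 0.27 without replicate 2, where Zfp42 was at -0.34. Without Dox, leaving out replicate 2 of 11C brought Nanog to -0.34 and Zfp42 to -0.26. DESeq2 called Klf4, Nanog and Zfp42 in both states, beside 18.7% of all genes without Dox and 16.4% with Dox. With only the 2 groups without Dox, edgeR called Klf4, Nanog, Tfcp2l1 and Pou5f1, beside 23.1% of all genes. Without 2C2, C11, replicate 1 or replicate 2 of 11C the genes called without Dox numbered 539, 1334, 1501 and 1100, and without 2C2 or C11 those called with Dox numbered 523 and 823. The summed fibroblast markers were lower in 11C, at 15.4 and 13.2 CPM in the 2 states against 28.8 and 29.7 CPM in XistDelA, and the part of any feeders left after pre-plating in these differences was not tested.

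**Figure D3:**
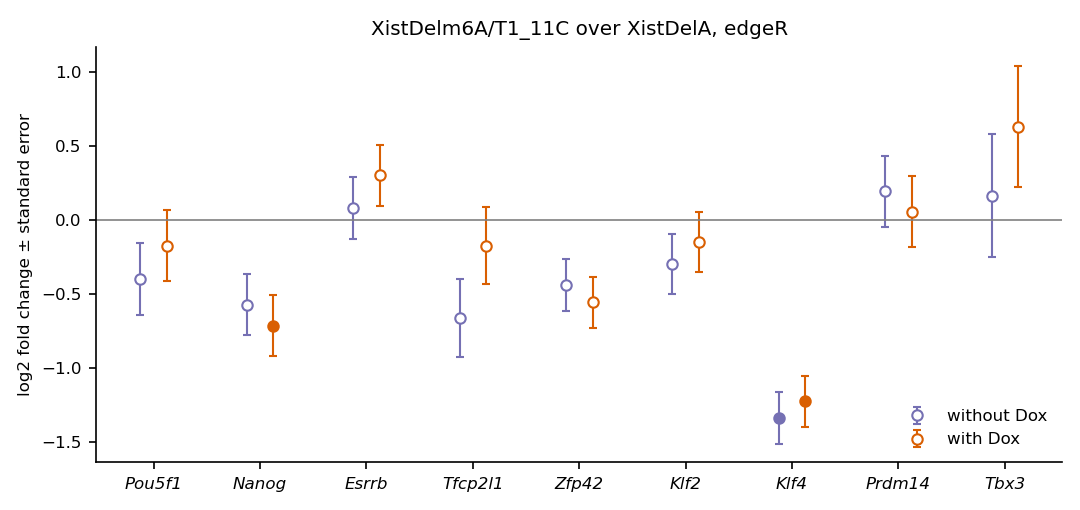
Log2 fold change of 11C over XistDelA (vertical axis, bars showing the standard error) for the 9 tested members, without Dox and with Dox, with filled points for those called by edgeR. Klf4 lies at -1.34 and -1.23 and is the member called in both states.

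Of the 22 further naive network genes, 4 (18.2%) were called between the lines in each state, near the 19.8% and 16.6% of all genes, with medians of -0.10 and -0.08 against 0.04 and 0.03 for all genes. The DNA demethylase gene Tet1 (-1.31 ± 0.18 without Dox) and Zfp281 (-0.88 ± 0.14) were lower in 11C, and the chromatin factor Utf1 was higher (1.10 ± 0.24). Of 23 primed and lineage genes listed, 19 passed the count filter here, against 15 in the fit of XistDelA alone and 18 in that of 11C. Those added can be genes high in 11C, so the medians of 0.62 and 0.45 and the shares called may lean that way. Of the 19, 6 (31.6%) were called without Dox, 4 higher and 2 lower. With Dox 7 (36.8%) were called, 4 higher and 3 lower, and no test compared this with all genes. The endoderm factors Gata6 (1.90 ± 0.30), Gata4 (1.56 ± 0.24) and Sox17 (1.50 ± 0.39) were higher in 11C without Dox, and the cadherin gene Cdh2 (-1.12 ± 0.16) lower. Sox17 was low in XistDelA, at 0.375 CPM without Dox against 1.15 CPM in 11C. It may therefore have passed the count filter through 11C. Sox7, a further endoderm factor of the list, was not called by edgeR and lay under 0 (-0.63 ± 0.71). In the lists of signalling genes fewer or about as many were called as among all genes. The BMP mediator Smad5 was 1 of 12 LIF and BMP genes (8.33%) called in each state (-0.76 ± 0.13 without Dox), and the ETS factor Etv5 was the 1 of 17 signalling regulators (5.88%) called without Dox (0.75 ± 0.19), with 3 (17.6%) called with Dox. The 15 genes of the 2-cell-like state had medians of -1.25 and -1.73, with 0 and 1 called by edgeR, Zscan4c being the 1 (-2.09 ± 0.59).

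Clone C11 was set against C1 and 2C2 with the Dox state in the model. edgeR called 0 of the 9 members, beside 468 of 15130 genes (3.09%), and DESeq2 also called 0 members, beside 892 genes. At an unadjusted p under 0.05 there were 1 member, Esrrb (0.30 ± 0.10), and 2857 genes. Tbx3 was at 0.37 ± 0.23, Klf2 at 0.18 ± 0.18, Prdm14 at -0.15 ± 0.11, Nanog at 0.14 ± 0.12, Pou5f1 at 0.12 ± 0.09, Klf4 at -0.12 ± 0.11, Tfcp2l1 at -0.05 ± 0.20 and Zfp42 at 0.03 ± 0.07. C11 is 1 clone, and its libraries without and with Dox count as replicates here, so the p-values measure the spread between libraries and not between clones. The choice of clone decides the calls. Against 2C2 alone edgeR called 2291 genes (15.4%), with Tfcp2l1 (-0.32) and Klf4 (-0.24) lower in C11. Against C1 alone it called 5296 genes (35.4%), with Tbx3 (0.75), Klf2 (0.44), Esrrb (0.40), Nanog (0.28) and Tfcp2l1 (0.27) higher. Each of these sets 1 clone against 1 clone. In each of the lists of the naive network, of LIF and BMP signalling and of signalling regulators 1 gene was called, Lin28a (0.56 ± 0.09), Lifr (0.39 ± 0.08) and Spry4 (0.56 ± 0.09), and 0 in the other lists by edgeR. The 2-cell-like genes, of which 0 were called, nevertheless had a median of 0.69 in C11, with 15 of 15 above 0. The median of all genes was -0.003, and no test compared the list with them.

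The counts assigned to a parental genome show from which of the parental copies the RNA came. From 7.51% to 84.0% of a member's counts could be assigned, fewest for Pou5f1, with 111 to 440 allelic counts in a library, and most for Prdm14. Over autosomal genes together the 129S share was from 49.8% to 52.0% in a library. Shares of members are given with 95% Wilson intervals, which cover counting error only, since the reads carry no molecular identifiers.

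The members differed widely in share, and much of this was common to all lines. Median 129S shares over the 12 libraries were 22.3% for Prdm14, 27.6% for Nanog, 28.2% for Esrrb, 32.4% for Zfp42, 34.4% for Klf2, 44.3% for Klf4, 46.9% for Tbx3, 57.9% for Pou5f1 and 58.2% for Tfcp2l1. Of 10120 autosomal genes, 1.27% had a lower median share than Prdm14 and 3.13% a lower one than Nanog. For Esrrb, Zfp42 and Klf2, on chromosomes 12 and 8, the genes within 5 Mb summed to low shares too, with medians over the libraries of 28.4%, 33.8% and 36.3%. The interval of Zfp42 nevertheless lay below the surrounding share in 10 libraries and above it in the 2 of replicate 2 of 11C. For Prdm14 and Nanog the surrounding genes summed to 57.1% and 51.1%, and the intervals of both members lay below the surrounding share in 12 of 12 libraries. Klf4 and Tbx3 were also below their surroundings (51.4% and 52.6%) in 12 of 12, with the interval below in 8 and 9. Tfcp2l1 lay above its surroundings (50.4%) in 12 of 12, and no interval of Pou5f1 left out its surroundings (56.9%). For Pou5f1 this depends on summing the surrounding genes. Their median share as single genes was 52.0% to 53.7% in a library, under that of Pou5f1 throughout. The interval of Pou5f1 lay above this median in WT with Dox and in both states of replicate 1 of 11C, and took it in elsewhere.

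Shares also separated libraries within a line. Zfp42 in replicate 2 of 11C had 39.0% (37.7 to 40.2) of its allelic counts from 129S without Dox and 39.8% (38.6 to 41.0) with Dox, against 29.7% to 32.7% in the other 10 libraries. Prdm14 in replicate 1 of 11C had 14.9% (12.2 to 18.0) and 13.3% (11.2 to 15.8), against 20.3% to 25.8% in the other 10. In both cases the intervals of the replicates of 11C did not overlap in either state, so the replicates differ by more than counting error although the clone is the same. No test was applied to these differences.

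**Figure D4:**
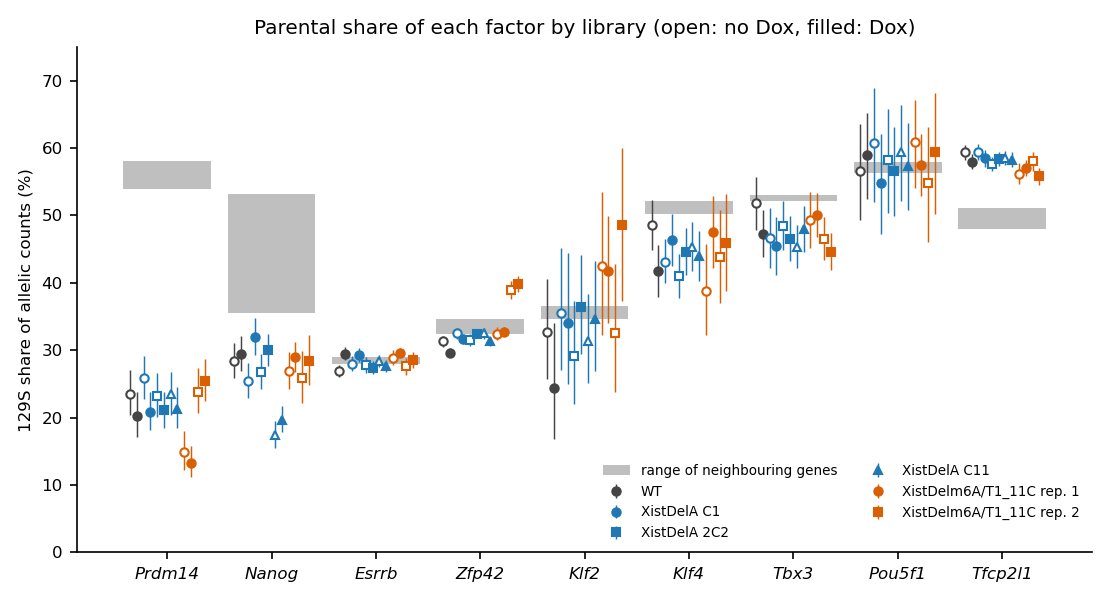
Percentage of allelic counts from the 129S genome (vertical axis) for each of the 9 detected members in the 12 libraries, with 95% Wilson intervals, open without Dox and filled with Dox; grey boxes span the summed share of genes within 5 Mb over the libraries. Nanog, Prdm14, Klf4 and Tbx3 lie below their boxes, C11 is lowest for Nanog, and replicate 2 of 11C is highest for Zfp42.

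Nanog had the most distinct clone. Its 129S share in C11 was 17.4% (15.5 to 19.5) without Dox and 19.7% (17.8 to 21.7) with Dox. In C1 it was 25.4% (23.0 to 28.1) and 31.9% (29.2 to 34.8), and in 2C2 26.8% (24.3 to 29.5) and 30.0% (27.7 to 32.4). WT had 28.3% (25.8 to 31.0) and 29.5% (27.0 to 32.1), and the 11C replicates had 26.9% (24.2 to 29.8) and 25.9% (22.2 to 29.9) without and 29.0% (26.7 to 31.3) and 28.4% (24.8 to 32.2) with Dox. C11 was below every other library in both states, without overlap of the intervals.

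Tested as the log2 ratio of 129S to Cast counts, Nanog was lower in C11 than in C1 and 2C2 by -0.81 ± 0.14 (edgeR adjusted p = 0.0275), and it was the 1 member called of 9, beside 178 of 13390 genes (1.33%). It was called with C1 left out and with 2C2 left out too, where the genes called numbered 499 (3.75%) and 1309 (9.72%). The libraries of C11 come from 1 clone, so this p-value too measures the spread between libraries, and the comparison was chosen with the altered segment known from earlier results. The difference is shared with the surroundings: the 90 genes within 5 Mb summed to 35.99% and 35.53% from 129S in C11, against 49.4% to 53.1% in the other libraries. Against the mean of C1 and 2C2, the median log2 difference of these genes in C11 was 0.61 for all counts, 1.07 for Cast counts and 0.06 for 129S counts without Dox, and 0.55, 1.02 and -0.03 with Dox.

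Nanog itself moved less in total. Its own log2 difference in C11 was 0.04 for all counts, 0.33 for Cast counts and -0.41 for 129S counts without Dox, and 0.23, 0.56 and -0.30 with Dox. These are below the lower quartile of the surrounding genes for each kind of count in both states, that quartile being 0.47, 0.89 and -0.09 without Dox and 0.39, 0.73 and -0.23 with Dox. Among the nearest genes, Gdf3, a TGF-beta family ligand, had 1.16 for Cast and 0.21 for 129S counts without Dox, and Slc2a3, a glucose transporter gene, 1.23 and 0.04. Dppa3 (Stella), a maternal-effect gene next to Nanog, had 0.71 and -0.40, and so was lower from 129S as Nanog was. With Dox it had 1.12 and -0.67, so from Cast it was well above Nanog. Clec4a1, with at most 1.10% of its allelic counts from 129S in these clones, was closer to Nanog. From Cast it had 0.43 without Dox and 0.64 with Dox. No test compared Nanog with these neighbours.

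**Figure D5:**
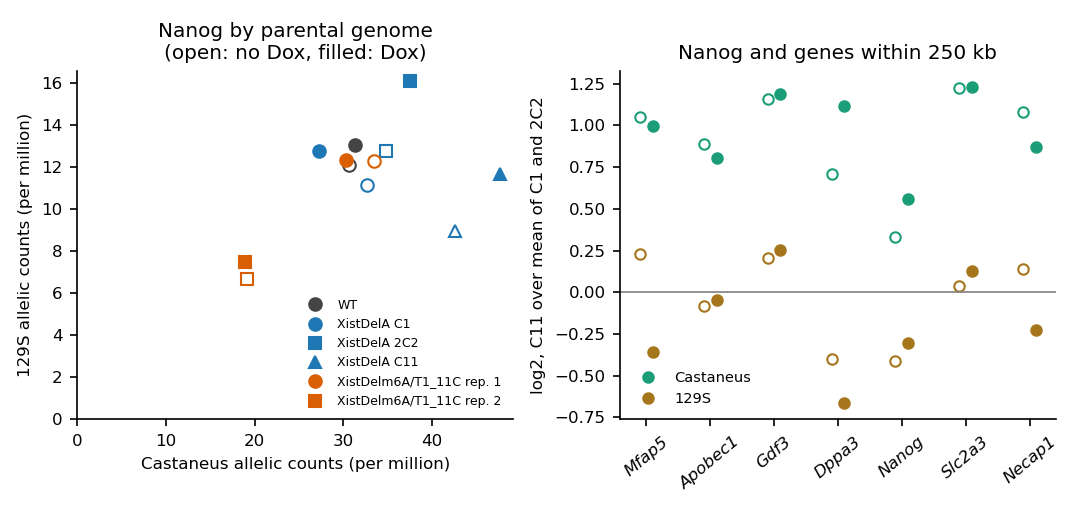
Left, allelic CPM of Nanog from Cast (horizontal) and 129S (vertical) in the 12 libraries; right, log2 difference of C11 from the mean of C1 and 2C2 for Nanog and 6 genes within 250 kb, by genome, open without Dox and filled with Dox. C11 is highest from Cast, and Nanog lies at 0.33 and 0.56 from Cast, below the other genes shown. Clec4a1, also within 250 kb, is not shown and was the nearest to Nanog from Cast (0.43 and 0.64).

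With Dox the 129S share of Nanog was higher in 6 of 6 pairs. The differences were 1.13 percentage points in WT, 6.49, 3.22 and 2.27 in C1, 2C2 and C11, and 2.06 and 2.49 in the 11C replicates. Of 10119 autosomal genes, 2.67% were higher in all 6 pairs and 3.14% lower in all 6. In the test over the XistDelA clones, edgeR called 0 of 9 members and 0 of 13390 genes (0.0%), with 1 member, Prdm14, and 515 genes at an unadjusted p under 0.05, and no other tool was run. Nanog was at a log2 ratio of 0.30 ± 0.30. With the clone as a block, a fit added after the data had been seen, edgeR called Nanog (0.30 ± 0.08, edgeR adjusted p = 0.0262) and no other member, beside 140 genes (1.05%), and in the other alternatives its edgeR adjusted p was 1.00.

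The total of Nanog changed little over the same pairs, from -0.24 to 0.14 on the log2 scale. Counts from 129S were higher with Dox in 6 of 6 pairs, though replicate 1 of 11C was level (0.0041), and counts from Cast in 3 of 6. For the other members the share was higher in 1 to 4 of the 6 pairs, with Zfp42 between -1.67 and 0.893 points and Tfcp2l1 between -2.21 and 0.861 points.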

How the data were processed

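RNA of the chromatin fraction was read in 12 libraries. The deposited values are counts per gene that the authors made with featureCounts (version 1.5.2) on mm10, over whole transcript spans and by strand, leaving out read pairs on 2 genes, without normalization, in 3 columns for all read pairs and for each parental genome. The submitters' processing notes also list STAR 2.4.2a and Bowtie2 2.3.2. From the counts, CPM were computed over all counts on genes, and changes of pairs without a pseudocount. Genes were tested by quasi-likelihood fits in edgeR 4.0.16 over all genes, with TMM, filterByExpr at a minimum count of 10, Benjamini-Hochberg adjustment and a threshold of 0.05, in R 4.3.3. XistDelA and 11C were fitted separately for Dox, and together, 10 libraries, for lines and for the difference in Dox change. Parental shares were tested in edgeR on the counts of both genomes with the library as a block, for genes averaging at least 10 allelic counts. WT entered no test, and the WT data that the paper takes from elsewhere are not used here. Of the members, 9 passed the filters. Scripts were tested on simulated data. Other values used Python 3.11.15 and scipy 1.17.1.

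Libraries of an XistDelA clone come from 1 clone, and their deviations from the group means correlated across genes at 0.595, 0.368 and 0.537. Alternatives were DESeq2 (version 1.42.0), its size factors in edgeR, no count filter, other sets of libraries, the block, leaving out libraries in turn, a minimum of 50 allelic counts and TMM library sizes for levels. The block for parental shares was added after the data had been seen. The members and the 5 lists were chosen with earlier results of these data known. Genes named from a list are those past the threshold, at most 6 per list and comparison by size of change, with Sox7, which is not, added after its values were seen. All members are named, with Xist and the 2 genes nearest in profile to the 3 members of widest range. Of the 2-cell-like list, 15 of 16 symbols are in the files. The neighbours of Nanog within 250 kb and single libraries were named after their values were seen.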

Additional observations from a re-analysis of the deposited data

Results flagged for a closer look

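The changes of Tfcp2l1 and Tbx3 with Dox had different signs in the 2 lines with replicates: each was under 0 in 3 of 3 XistDelA clones and above 0 in both replicates of XistDelm6A/T1_11C. For Tbx3 this rests on replicate 2 (log2 change 0.37), since replicate 1 was level (0.0069). By assigned counts Tbx3 was under 0 in replicate 1, at -0.0561 from Cast and -0.0119 from 129S, and above 0 from Cast in 2C2 (0.0651). Tfcp2l1 had the same signs on both genomes as in its total. No fit called either gene with Dox in 11C. The difference between the Dox changes was 0.49 on the log2 scale for Tfcp2l1 and 0.47 for Tbx3. Neither passed edgeR's test of that difference (adjusted p = 1.00 for both). Of 12282 genes, 319 (2.60%) had this same pattern, lower in all 3 clones and higher in both replicates. The difference for Tbx3 turned to -0.41 without the Dox library of replicate 2 of 11C, while that for Tfcp2l1 kept its sign over its alternatives, from 0.14 to 0.77. The cause of these signs was not tested.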

How the results depend on the processing

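With Dox in XistDelA, where 3 genes were called, DESeq2 called 362 and the replicate block by clone 4410, which added calls of Pou5f1, Klf2, Klf4, Tfcp2l1, Zfp42 and Tbx3, and leaving out a clone gave 0 to 2. In 11C, where 0 were called by edgeR and 173 had an unadjusted p under 0.05, DESeq2 called 3, no count filter 2, all 4 groups in 1 fit 2 and the replicate block 237, none of them a member, and leaving out a library gave 4 to 14. The replicates of 11C share a number only, and their deviations correlated at 0.691. For the difference in Dox change, where 0 were called, DESeq2 called 2 and the replicate block 117, no member among them, and leaving out libraries gave 0 to 1. In that block, which for 11C rests on a shared number only, Tfcp2l1 (unadjusted p = 0.00135, edgeR adjusted p = 0.0935) and Tbx3 (unadjusted p = 0.0169, edgeR adjusted p = 0.274) were under an unadjusted 0.05, where 0 members were without it. Between the lines without Dox, leaving out libraries gave 539 to 2232, and with Dox 523 to 3489, and only the 2 groups with Dox gave 1157. For C11 against the other clones DESeq2 called 892, and leaving out C1 or 2C2 gave 2291 and 5296. For the parental share, the replicate block called 140 with Dox where 0 were called, Nanog the only member among them, and leaving out C1 or 2C2 gave 499 and 1309 for C11. Of the genes of the 5 lists the replicate block called 2 of the naive network with Dox in 11C and 1 signalling regulator for the difference in Dox change, where 0 were called, and Xist gained its call in both and for the parental share. The block changed no other call of a member. The causes were not tested.

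Log2 fold changes under alternatives were taken for 5 of the 9 members with Dox in 11C and for the difference in Dox change. For the parental shares they were taken for Nanog alone, and elsewhere for all 9. Of these 350 values, 296 kept direction and call, 23 passed the threshold newly, 4 lost it and 27 changed sign. All 27 did so on leaving out a library or clone. Beside these, Pou5f1 with Dox in 11C went from 0.0501 to -0.0388 with the replicate block, and the parental share of Tbx3 with Dox in XistDelA from -0.0084 to 0.0038. Lowest and highest values on leaving out were as follows. With Dox in XistDelA, Nanog had -0.10 to 0.0673 and Esrrb -0.0696 to 0.12. With Dox in 11C, Zfp42 had -0.0019 to 0.52, Klf4 -0.44 to 0.0395, Tfcp2l1 -0.15 to 0.45 and Tbx3 -0.56 to 0.82. For the difference in Dox change, Zfp42 had -0.38 to 0.10, Klf2 -0.0131 to 0.32, Klf4 -0.13 to 0.38 and Tbx3 -0.41 to 1.00. Between the lines without Dox, Esrrb had -0.0243 to 0.25, Prdm14 -0.10 to 0.43 and Tbx3 -0.38 to 0.55. With Dox, Pou5f1 had -0.81 to 0.27, Esrrb -0.0521 to 0.59, Tfcp2l1 -0.53 to 0.10, Prdm14 -0.42 to 0.41 and Tbx3 -0.25 to 1.16. In C11, Klf2 had -0.0329 to 0.44, Klf4 -0.24 to 0.0075 and Tfcp2l1 -0.32 to 0.27. A lone library left in a group is assumed to vary as the others do.

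Over TMM library sizes, 51 of 54 group levels of members moved by less than 1 SD, or the counting interval in WT, and none by more than 0.11 on the log2 scale. Measured from the share over autosomal genes, 43 of 54 group shares did. Depth limits the shares of Pou5f1 and Klf2 most, with 111 to 440 and 70 to 185 allelic counts in a library.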
